A study of Mus musculus with 8 samples.

Results

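Mitochondrial ribosomal protein genes were taken as the protein-coding genes whose symbol begins with Mrpl or Mrps, which gave 78 of the 49315 genes in the count tables. Symbols beginning with Mrpl numbered 49 and symbols beginning with Mrps numbered 29, and all 78 passed the filter on low counts. They were compared in neutrophils of 2-month-old C57BL/6 mice, collected from the peritoneal cavity after casein, which draws neutrophils there, and sorted by their density into a high-density and a low-density fraction. The 8 libraries held 2 of each of 4 groups, namely wild-type high density, wild-type low density, H2R-deficient high density and H2R-deficient low density. H2R is the histamine H2 receptor, encoded by Hrh2. The labels do not describe the allele, and the genotype is used as labelled. Wild-type libraries carried the replicate numbers 2 and 4 and H2R-deficient libraries 1 and 2. Nothing in the labels says whether replicates came from separate mice, so the p-values refer to the spread between libraries, which may be technical.

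The mitochondrial ribosome translates the few proteins encoded by mitochondrial DNA, all of them core parts of the respiratory chain and ATP synthase. Its ribosomal RNAs come from mitochondrial DNA, but its proteins are encoded in the nucleus, made in the cytosol and imported. The small subunit binds and decodes the mRNA, and the large subunit joins the amino acids and passes the chain to the inner membrane. Many of its proteins have a counterpart in bacterial ribosomes and many others are found in mitochondria only. Mature neutrophils have few mitochondria and obtain most of their ATP from glycolysis.

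By class, 29 of the genes encode large-subunit proteins with a bacterial counterpart, 22 mitochondria-specific large-subunit proteins, 16 small-subunit proteins with a bacterial counterpart and 10 mitochondria-specific small-subunit proteins. Mrps18a and Mrps30 were counted with the large subunit, where their proteins sit in spite of their symbols. Mrps18a and Mrps18b were counted as mitochondria-specific although they are paralogues of Mrps18c, which has a bacterial counterpart. The remaining gene, Mrps36, encodes a subunit of the oxoglutarate dehydrogenase complex rather than a ribosomal protein. The 78 genes lay on 17 chromosomes of GRCm38, with 11 on chromosome 11, 8 on chromosome 17 and none on the mitochondrial chromosome.

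Libraries held 19862716 to 24199215 counts, and the log2 CPM of replicate libraries correlated across genes with r between 0.984 and 0.991. CPM here are counts relative to a library size scaled by the trimmed mean of M-values (TMM). Hrh2, the gene named by the genotype, kept reads in every library, with 2003 and 700 counts in wild-type and 599 and 275 in H2R-deficient high-density libraries. Low-density libraries held 556 and 830 Hrh2 counts in wild type and 435 and 215 in the H2R-deficient group. The genotype difference of Hrh2 did not pass the test at high density (log2 fold change -1.60 ± 0.55 (SE), adjusted p = 0.192) or at low density (-1.48 ± 0.55, adjusted p = 0.196), though at each density both H2R-deficient libraries lay below both wild-type libraries. The unadjusted p was 0.0211 at high and 0.0297 at low density. Group means were 26.3 against 79.7 CPM at high and 9.83 against 27.5 CPM at low density. Neutrophil markers were abundant throughout: 12 mature neutrophil genes summed to 66880 to 72313 CPM in wild-type high-density, 33352 to 47023 in wild-type low-density, 75567 to 76780 in H2R-deficient high-density and 19761 to 28323 in H2R-deficient low-density libraries.

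The genes of the set covered a wide range of levels. Per length, as RPKM (the same CPM divided by the exonic length in kilobases given in the tables), their mean level over 8 libraries ran from 0.252 to 21.4 with a median of 1.75, against a median of 2.20 over the 12523 protein-coding genes tested. The highest level belonged to Mrpl52, a mitochondria-specific large-subunit protein, at 21.4 RPKM. It was followed by Mrps21, a small-subunit protein with a bacterial counterpart, at 18.4 and by Mrpl33, a short large-subunit protein with a bacterial counterpart, at 13.8 RPKM. At the other end stood Mrps35 of the small subunit at 0.252, Mrpl47 of the large subunit at 0.358 and Mrps10 of the small subunit at 0.376 RPKM. All 3 of these lowest genes rose in H2R-deficient cells with low density, by 1.88, 1.77 and 2.19 on the log2 scale (adjusted p = 0.00440, 0.00464 and 0.00385). Counts behind these levels ran from 2 to 2562 per library, and the median over genes of the mean count was 95.4, so counting error weighs on the lower ones. Exonic lengths in the tables hold every annotated transcript. In the median gene 77.7% of the exonic bases belonged to transcripts annotated as protein coding, but in Mrpl33 only 6.52% did, and in 16 genes the share was under 50%. For those genes a count or a level per length cannot be read as the coding mRNA alone.

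The median gene of the set lay at 1.09 and 1.33 RPKM in the wild-type high-density and 2.31 and 1.97 in the wild-type low-density libraries. In the H2R-deficient libraries it lay at 0.983 and 1.02 RPKM at high density and at 2.92 and 3.16 at low density. The low-density libraries were thus the higher ones in both genotypes, without overlap. The sum of all 78 genes moved less, from 484 and 499 CPM to 517 and 506 in wild type and from 445 and 431 to 612 and 678 CPM in the H2R-deficient libraries. Mrpl33 alone held 25.1% to 31.2% of that sum at high density and 6.31% to 19.0% at low density. Without it the sums were 333 and 363 against 439 and 410 CPM in wild type, and 334 and 298 against 573 and 615 CPM in the H2R-deficient libraries.

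**Figure D1:**
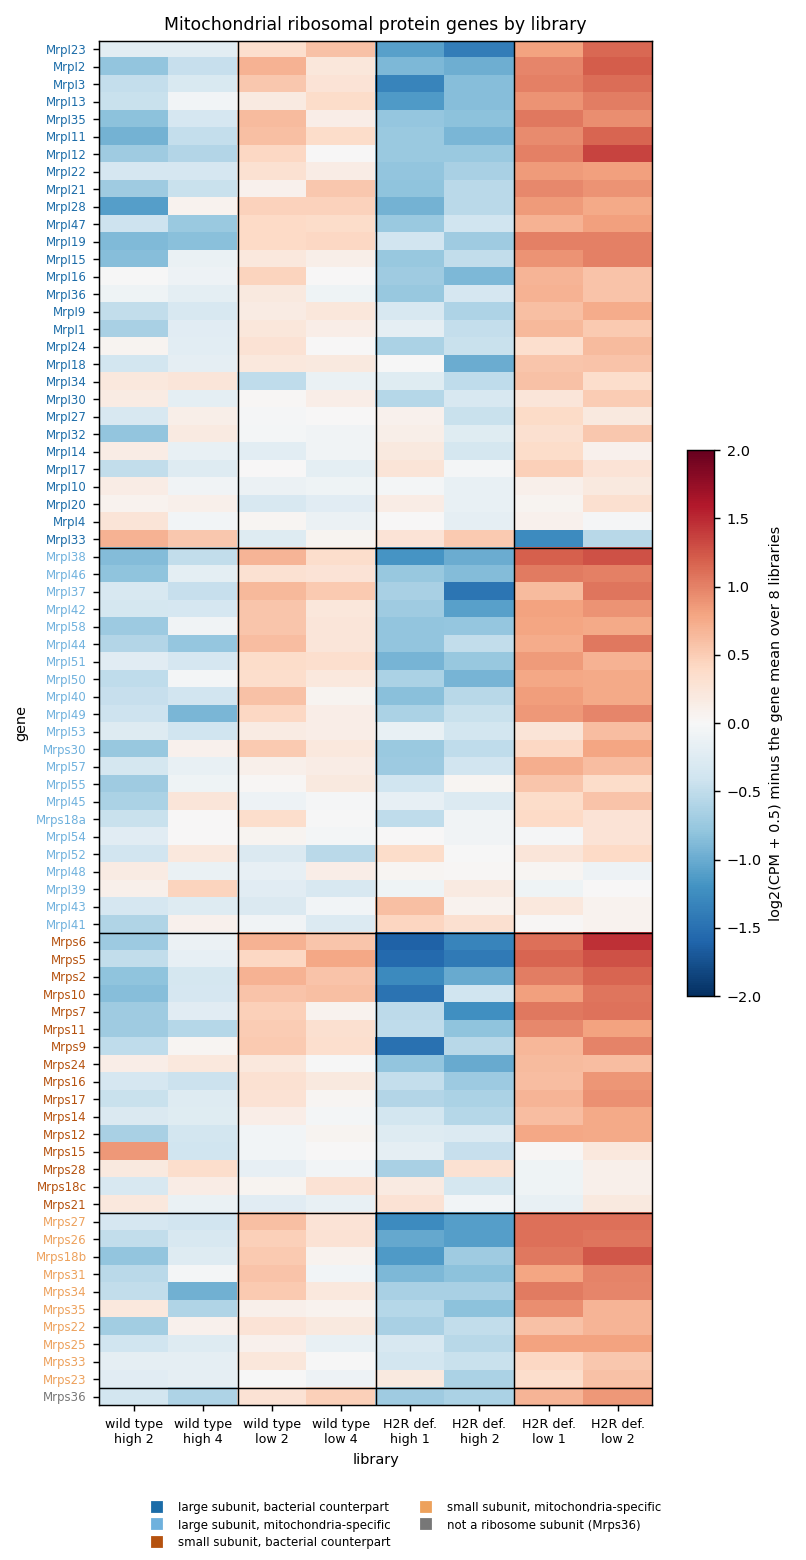
Level of each of the 78 genes (rows) in each of the 8 libraries (columns) as log2(CPM + 0.5) minus the gene's mean over the libraries, with genes grouped and coloured by ribosome subunit and class and, within a class, ordered by their change in H2R-deficient cells. Most rows are red in the low-density libraries, most strongly in the 2 H2R-deficient ones, and Mrpl33 runs the other way; the colour scale ends at 2 in either direction.

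Between H2R-deficient low-density and high-density neutrophils, 55 of the 78 genes rose and 1 fell, with a median log2 fold change of 1.67. Over all 14909 genes tested, 30.0% were called higher, 23.9% lower and 54.0% in either direction (edgeR's quasi-likelihood test, Benjamini-Hochberg adjusted p under 0.05), with a median of 0.10. The 55 rises ran from 0.87 to 4.45 on the log2 scale and 25 of them exceeded 2. With library sizes as total counts 76 of the 78 were called higher and 0 lower, where 7690 and 387 of the 14909 genes were. Under either scaling 71 of the 78 lay above the median of all genes. A change of scaling shifts all genes by nearly the same amount, so it can hardly alter that count. In 65 of the 78 genes each low-density library lay above each high-density library, against 43.9% of all genes tested, and in 2 genes below, against 37.1%. In bulk RNA, fewer cells of a type and less RNA per cell cannot be told apart.

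The largest rise was that of Mrps6, which encodes a small-subunit protein with a bacterial counterpart. In H2R-deficient cells it had 2 and 4 counts at high density and 128 and 134 at low density, or 0.117 and 0.255 against 3.55 and 4.74 CPM. The fitted log2 fold change was 4.45 ± 0.52 (SE, adjusted p = 0.000318). From the pooled 6 and 262 counts the ratio was 22.2, with a 95% interval of 10.1 to 61.2 that covers counting error only. Mrps6 (ENSMUSG00000039680, chr16:92058270-92112227, plus strand) shares exonic bases with Slc5a3 on the same strand, so reads of the pair may not be separated.

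Mrps5, another small-subunit protein with a bacterial counterpart (ENSMUSG00000027374, chr2:127587222-127606829, plus strand), overlaps no other annotated exon. It stood at 0.584 and 0.702 CPM in the H2R-deficient high-density and at 6.65 and 7.21 in the low-density libraries, a log2 fold change of 3.42 ± 0.33 (SE, adjusted p = 0.000203). Mrps27 (ENSMUSG00000041632, chr13:99344786-99415561, plus strand) encodes a mitochondria-specific small-subunit protein of the pentatricopeptide repeat type. Its levels were 0.350 and 0.447 CPM at high and 3.88 and 3.89 CPM at low density, a log2 fold change of 3.27 ± 0.38 (SE, adjusted p = 0.000317). Few counts stand behind the high-density values. Mrps27 shares exonic bases with 6430562O15Rik on the opposite strand, which also rose in H2R-deficient cells (3.44, adjusted p = 0.0194), so reads of the pair may not be separated. Mrpl38 (ENSMUSG00000020775, chr11:116131817-116138868, minus strand), a mitochondria-specific large-subunit protein, went from 0.934 and 1.15 to 7.01 and 7.42 CPM (2.79 ± 0.32, adjusted p = 0.000278). In all 4 genes the low-density libraries lay far above the high-density ones, with no overlap.

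Mrpl12 is the stalk protein of the large subunit that recruits translation factors, and it has been described to bind mitochondrial RNA polymerase. It rose from 2.92 and 2.94 CPM to 11 and 14.1 CPM in H2R-deficient cells (2.10 ± 0.26, adjusted p = 0.000374). Mrpl58 encodes a peptidyl-tRNA hydrolase that is also built into the large subunit. It rose from 0.876 and 0.893 to 3.60 and 3.53 CPM (2.01 ± 0.39, adjusted p = 0.00257). Mrps36, the dehydrogenase subunit in the set by its symbol only, rose from 0.642 and 0.702 to 2.49 and 2.90 CPM (2.00 ± 0.38, adjusted p = 0.00235). Both hydrolase and dehydrogenase subunit lay near 1.88, the median of all genes of the set called higher, themselves included.

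Both subunits and all 4 classes held genes that rose. Among small-subunit proteins 21 of 26 rose (median 1.83), of which 12 of 16 with a bacterial counterpart (median 1.67) and 9 of 10 mitochondria-specific ones (2.07). Among large-subunit proteins 33 of 51 rose and 1 fell (median 1.40), of which 21 of 29 with a bacterial counterpart (1.28) and 12 of 22 mitochondria-specific ones (1.55). The difference between classes was not tested. The 3 paralogues of the S18 family had different values, which were not tested against each other. Mrps18b of the small subunit rose from 0.876 and 1.34 to 5.74 and 6.65 CPM in H2R-deficient cells (2.48 ± 0.38, adjusted p = 0.000847). Mrps18a, whose protein sits in the large subunit, stood at 4.73 and 6.57 against 9.34 and 8.55 CPM and did not pass (0.66 ± 0.27, adjusted p = 0.0601). Mrps18c of the small subunit stood at 8.06 and 5.42 against 6.62 and 7.64 CPM, with overlapping libraries (0.08 ± 0.27, adjusted p = 0.822). Both Mrps18a (1.58, adjusted p = 0.00150) and Mrps18c (0.974, adjusted p = 0.0156) were called higher with library sizes as total counts.

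The 22 genes that did not pass in H2R-deficient cells had log2 fold changes from -0.34 to 1.70, 17 of them above 0, and the lowest adjusted p among them was 0.0515, for Mrpl45, a protein at the exit tunnel that binds the inner membrane. They include the 2 genes with the highest level per length. Mrpl52 stood at 30.0 and 22.9 CPM at high and 27.4 and 30.5 CPM at low density (0.13 ± 0.24, adjusted p = 0.669). Mrps21 stood at 16.5 and 13.0 against 12.1 and 15.6 CPM (-0.10 ± 0.22, adjusted p = 0.73). In both genes the libraries of the 2 densities overlapped. Their lack of a call depends on the scaling. Both were called higher with library sizes as total counts, as were 7690 of the 14909 genes tested. The values were then 1.03 for Mrpl52 (adjusted p = 0.00874) and 0.799 for Mrps21 (adjusted p = 0.0124).

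Mrpl33 was the 1 gene called lower. Its row (ENSMUSG00000106918, chr5:31596935-31664384, plus strand) held 1916 and 2087 counts at high density and 1394 and 1786 at low density in H2R-deficient cells, or 112 and 133 against 38.6 and 63.1 CPM. The log2 fold change was -1.27 ± 0.25 (SE, adjusted p = 0.00264). With library sizes taken as total counts it was -0.38 and did not pass (adjusted p = 0.156). The row has 7326 exonic bases, of which 478 lie in its single transcript annotated as protein coding. The counts do not say which of its 11 transcripts they came from.

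**Figure D2:**
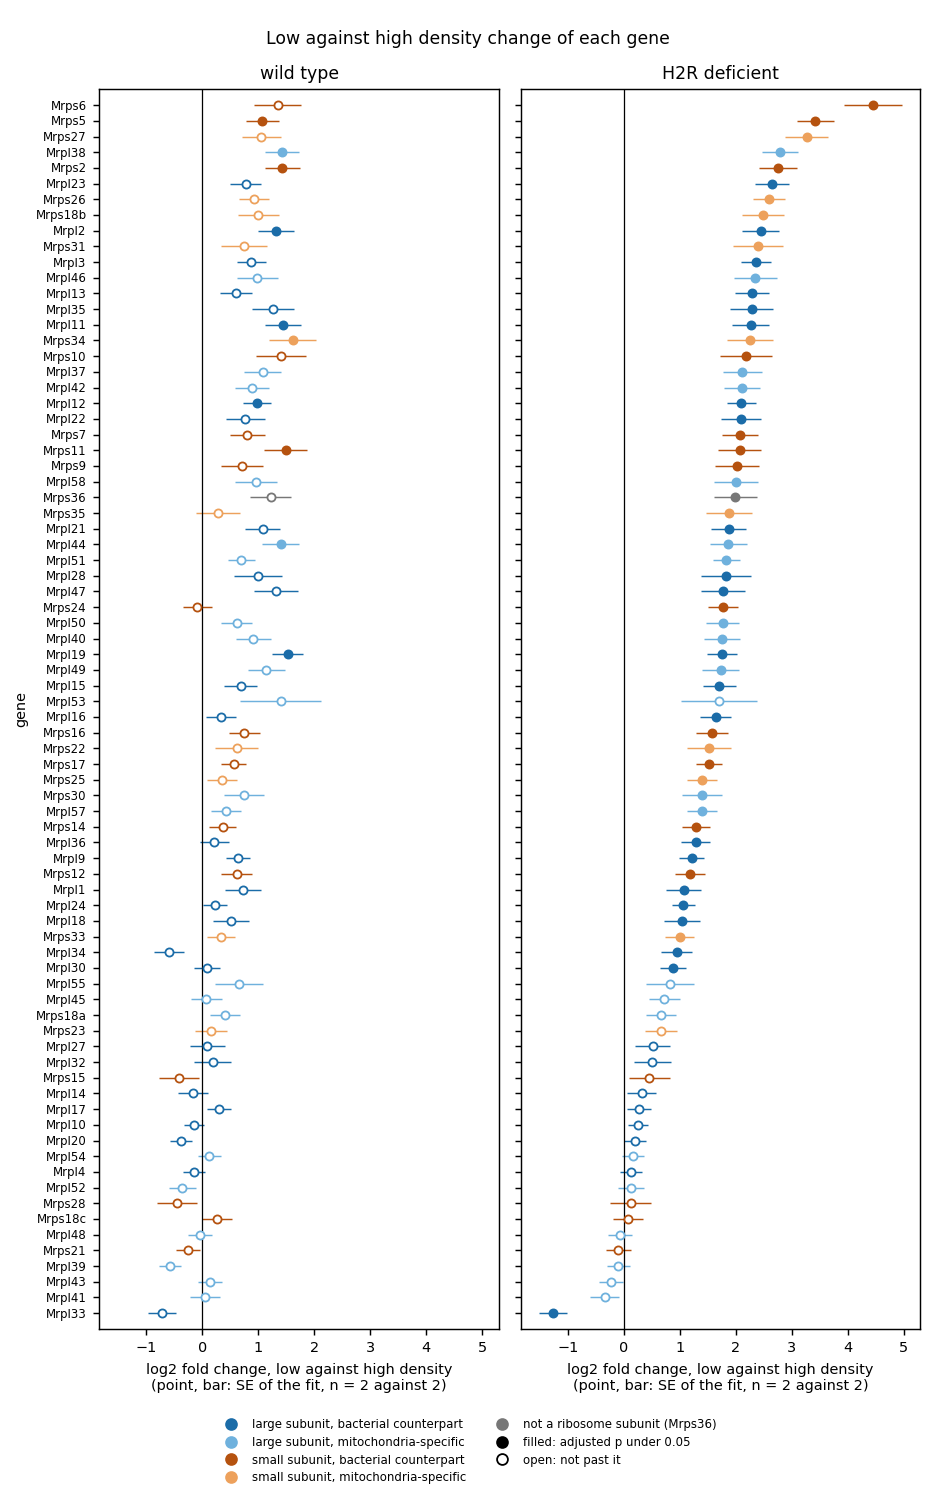
Log2 fold change of each of the 78 genes between low and high density (point) with its standard error (bar), in wild-type cells (left) and H2R-deficient cells (right), ordered by the H2R-deficient value; colour gives subunit and class, and filled points passed an adjusted p of 0.05. Filled points number 10 on the left and 56 on the right, and most points lie farther right in the H2R-deficient panel.

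In wild-type cells 10 of the 78 genes rose with low density and 0 fell (1, Mrpl33, by DESeq2), against 8.51% and 4.15% of all genes tested. The share of 12.8% is close to the background of this scaling. With library sizes as total counts 55 of 78 rose, where 4822 of the 14909 genes did. Under either scaling 61 of the 78 lay above the median of all genes, a count that scaling can hardly alter. At an unadjusted p under 0.05 there were 37 of the 78, a count not set against its share over all genes. The median log2 fold change was 0.65 against 0.10 over all genes, with 65 of 78 values above 0 and a range from -0.72 to 1.61. In 52 genes each low-density library lay above each high-density library (35.1% of all genes) and in 7 below (27% of all genes). The calls rest on few libraries: none of the 10 was kept without wild-type high-density library 2 or without wild-type low-density library 2. Of the 10, 5 were kept when library 4 of wild-type high density was left out, and 3 when library 4 of wild-type low density was. Dropping a low-density library of the other genotype, 1 or 2, each left 4.

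The largest of these rises was that of Mrps34, a mitochondria-specific protein needed for a stable small subunit, with 13 and 7 counts at high and 51 and 40 counts at low density. That is 0.766 and 0.413 against 2.07 and 1.57 CPM, a log2 fold change of 1.61 ± 0.42 (SE, adjusted p = 0.0385). Mrpl19, a large-subunit protein with a bacterial counterpart, went from 1.41 and 1.48 to 4.13 and 4.19 CPM (1.52 ± 0.28, adjusted p = 0.0153). Mrps11, on the platform of the small subunit, went from 0.648 and 0.767 to 2.15 and 1.84 CPM (1.49 ± 0.38, adjusted p = 0.0369). Mrpl11, at the base of the large-subunit stalk, went from 1.06 and 1.65 to 4.05 and 3.37 CPM (1.45 ± 0.32, adjusted p = 0.0258). In each of these 4 genes both low-density libraries lay above both high-density ones, and in Mrps34 and Mrps11 under 15 counts stood behind each high-density value. The other 6 rises were Mrpl38 (1.43), Mrps2 (1.43), Mrpl44 (1.40), Mrpl2 (1.32), Mrps5 (1.07) and Mrpl12 (0.97), the last from 3.01 and 3.31 to 7.13 and 5.29 CPM. Exonic bases are shared by Mrps34 with Mapk8ip3 on the opposite and Nme3 on the same strand, by Mrps11 with Mrpl46, by Mrpl19 with Gcfc2 and by Mrpl44 with Wdfy1. The strand setting of the counting is not known from the labels or headers.

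All 10 genes called in wild type were also called higher in H2R-deficient cells, where they made up 18.2% of the 55. In 49 genes all 4 low-density libraries lay above all 4 high-density libraries, against 26.1% of all genes tested. Mrpl33 was the 1 gene with all 4 below, against 16.8% of all genes. In wild type Mrpl33 stood at 151 and 136 CPM at high and 77.5 and 96.3 CPM at low density, which did not pass (-0.72 ± 0.24, adjusted p = 0.0765) but was called lower by DESeq2 (adjusted p = 0.0232) and without the filter on low counts (0.0170). Across the 78 genes the changes in the 2 genotypes, which share no library, correlated at a Spearman rho of 0.83, as they did at 0.84 across the protein-coding genes tested.

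**Figure D3:**
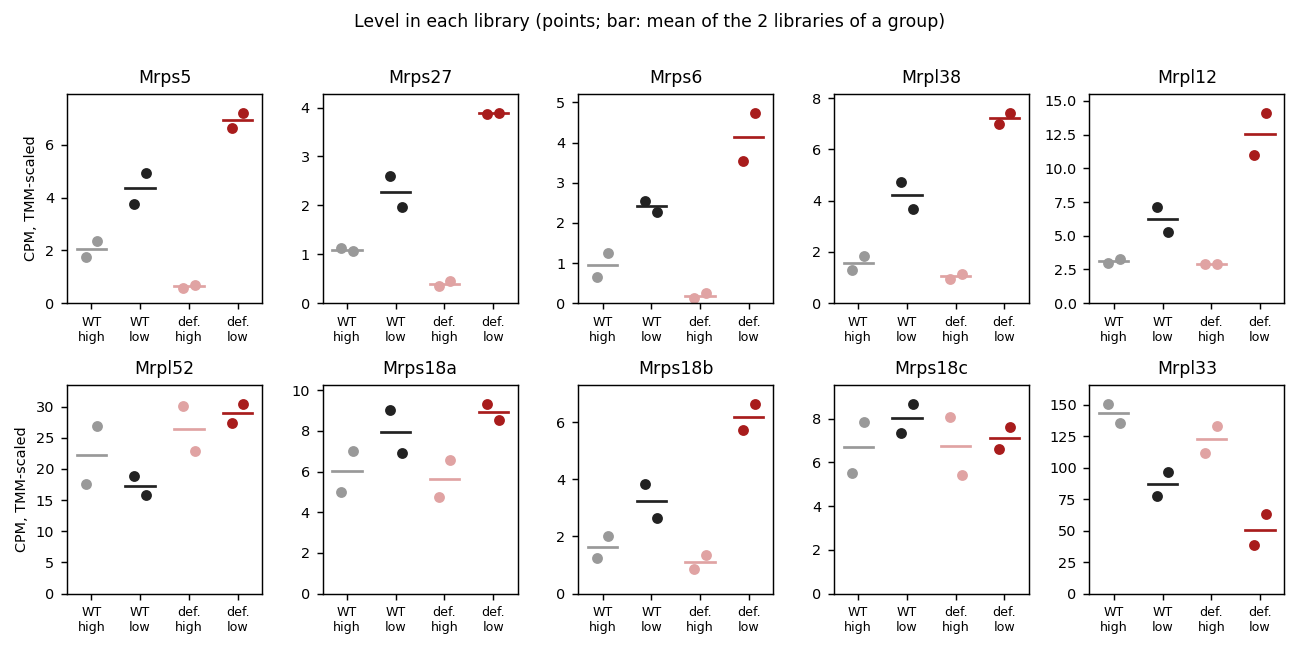
CPM of 10 genes in the 2 libraries of each group (points) with the group mean (bar), each panel on its own axis from 0. Mrps5, Mrps27, Mrps6, Mrpl38, Mrpl12 and Mrps18b are lowest in the high-density and highest in the H2R-deficient low-density libraries, Mrps18a shows this order with overlapping wild-type libraries, Mrps18c and Mrpl52 do not show it, and Mrpl33 is lower in the low-density libraries.

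Markers of B cells, of dendritic cells and of cell division were higher at low density, as most of these genes were, whereas other marker lists moved in part or the other way. The summed level of 10 B cell markers was 53.9 to 60.7 CPM in wild-type high-density, 195 to 428 in wild-type low-density, 45.9 to 69.0 in H2R-deficient high-density and 762 to 969 CPM in H2R-deficient low-density libraries. Of those 10 markers, 9 rose in wild type, and all 10 rose in H2R-deficient cells. Dendritic cell markers, of which 5 of 7 tested rose in each genotype, summed to 9.13 to 31.2, 210 to 455, 9.99 to 15.2 and 476 to 704 CPM in the same order of groups. Cell division genes, of which 10 of 12 and 12 of 12 rose, summed to 113 to 156, 197 to 247, 108 to 112 and 277 to 382 CPM. T cells and NK cells are other lymphocytes that the peritoneal cavity holds. T cell markers summed to 8.44 to 11.4, 34.3 to 36.9, 9.23 to 35.5 and 45.4 to 50.5 CPM, with 3 of 9 called higher for wild type and 1 of 9 for the H2R-deficient group. NK cell markers summed to 0.471 to 1.18, 8.71 to 8.93, 1.64 to 1.72 and 10.7 to 13.3 CPM, with 3 of 7 and 5 of 7 higher. Markers of myeloid cells moved in both directions. Macrophage markers summed to 1023 to 1051, 674 to 720, 838 to 977 and 511 to 552 CPM, and in H2R-deficient cells 6 of 10 rose and 2 fell. Immature neutrophil markers summed to 298 to 733, 643 to 1253, 1092 to 1874 and 598 to 1125 CPM, and 0 of the 4 that were tested changed in either genotype (edgeR; 1 for wild type and 0 for the H2R-deficient group at an unadjusted p under 0.05). Of the mature neutrophil markers 3 of 12 fell in wild type, and 12 of 12 fell in H2R-deficient cells, or 1 and 10 with library sizes as total counts, where no macrophage marker fell. Among eosinophil markers 1 of 5 rose in both genotypes, and 3 fell in wild type against 2 in H2R-deficient cells. Of the mast cell markers 1 of 6 and 4 of 6 fell. Erythroid markers fell in 5 of 5 cases in both genotypes, from 62.8 to 226 and 29.1 to 65.5 CPM at high density to 0.486 to 1.49 and 0.111 to 0.424 at low density in wild type and in H2R-deficient libraries. Among the defining markers of these lists, the eosinophil gene Epx was at 0 outside wild-type high density, and the immature neutrophil gene Ms4a3 at 0 in all high-density libraries. The part of these cells and of cell division in the changes of the ribosomal protein genes was not tested.

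Genes with a low level rose more often than genes with a high level. So that level and change share no library, each genotype's change was set against the level per length in the high-density libraries of the other genotype. Level and change are still not independent, because the changes in the 2 genotypes correlate (Spearman rho 0.84 over the protein-coding genes tested). For the change in H2R-deficient cells the Spearman rho over the 78 genes was -0.73, as against -0.66 over the protein-coding genes tested. For the change in wild type it was -0.75 against -0.67. The set was also split by mean level per length over all 8 libraries into 3 parts of 26 genes, at 1.12 and 3.16 RPKM. That mean includes the libraries that make the change, so in this split level and change are not independent either, and they share libraries. In H2R-deficient cells 24 of 26 rose in the lowest part and 23 of 26 in the middle part. In the highest part 8 of 26 rose and 1 fell. Protein-coding genes in the same ranges of level rose in 47.4%, 42.7% and 16.2% of cases. Median log2 fold changes were 2.09, 1.77 and 0.39 for the set and 1.47, 0.47 and -0.58 for the protein-coding genes. In wild type 6, 3 and 1 of 26 genes rose, against 13.0%, 12.4% and 4.71% of the protein-coding genes. In each part 0 fell, against 0.612%, 1.86% and 8.27%.

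**Figure D4:**
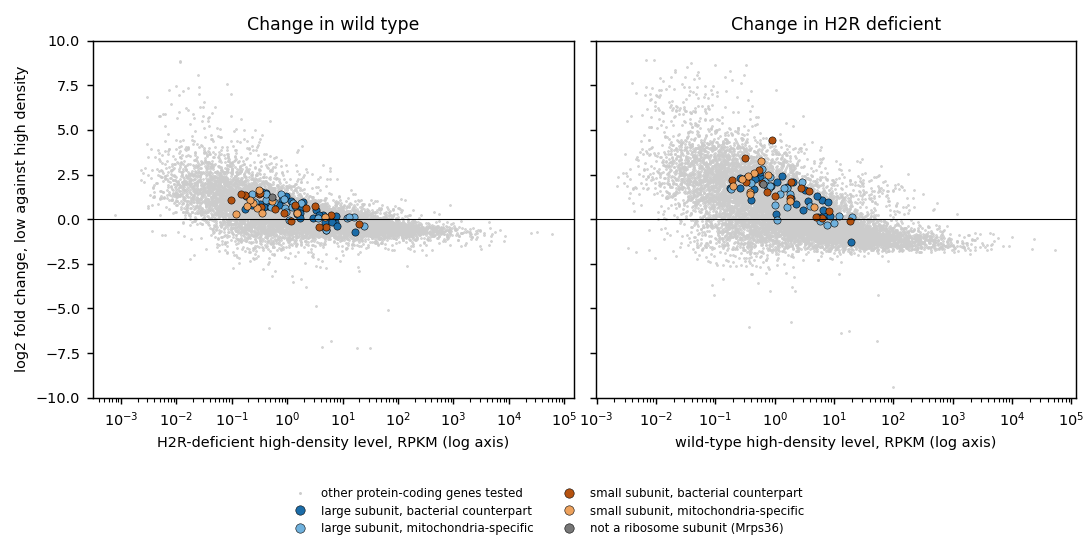
Log2 fold change between low and high density against the RPKM level (log axis) in the high-density libraries of the other genotype, for wild type (left) and H2R-deficient cells (right). Coloured points are the 78 genes by class, grey points the other protein-coding genes tested whose level is above 0; in both panels the change is lower where the level is higher (Spearman rho -0.75 and -0.73 over the 78 genes).

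Set directly against each other, the genotypes gave no call in the 78 genes by edgeR with TMM scaling and the filter on low counts. The limit was an adjusted p under 0.05, and a missing call does not show that the genotypes are equal. At high density 0 of 78 passed, where 0.0201% of all genes tested were higher, 0.188% lower and 0.208% either, and 16 had an unadjusted p under 0.05. DESeq2 called 2 there, and edgeR without the filter called Mrps5, Mrps24, Mrps6 and Mrpl23, all lower in H2R-deficient cells. Neither these counts and calls nor the signs below are set against all genes under the same criterion. The median log2 fold change, H2R deficient against wild type, was -0.28 with 59 of 78 values below 0. Mrps5 had the lowest p, at 1.77 and 2.36 CPM in wild-type and 0.584 and 0.702 CPM in H2R-deficient high-density libraries (-1.68 ± 0.34, adjusted p = 0.0852). Next was Mrps24, which encodes a small-subunit protein with a bacterial counterpart, at 4.01 and 4.25 against 1.87 and 1.53 CPM (-1.28 ± 0.27, adjusted p = 0.0937). Both are the genes called by DESeq2 (adjusted p = 0.0288 and 0.0342). Mrps24 shares exonic bases with Urgcp on the same strand. In the other direction, Mrpl43 stood at 11.6 and 12.2 against 22.7 and 15.5 CPM (0.68 ± 0.22, adjusted p = 0.164) and Mrpl17 at 7.42 and 8.79 against 12.8 and 10.3 CPM (0.51 ± 0.21, adjusted p = 0.243).

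At low density 0 of 78 passed by edgeR with the filter, as did 0 of all genes tested (0%). Of the 78, 30 had an unadjusted p under 0.05. DESeq2 called 1, and edgeR without the filter called Mrpl12 and Mrpl52 higher and Mrpl33 lower in H2R-deficient cells. The median was 0.52, with 75 of 78 values above 0. The unadjusted and DESeq2 counts, the calls without the filter and the signs are likewise not set against all genes. Mrpl12 had the lowest p, at 7.13 and 5.29 CPM in wild-type and 11 and 14.1 CPM in H2R-deficient low-density libraries (1.01 ± 0.24, adjusted p = 0.108; DESeq2 adjusted p = 0.0337). Mrps25, a mitochondria-specific small-subunit protein, stood at 3.57 and 2.98 against 6.21 and 6.19 CPM (0.92 ± 0.26, adjusted p = 0.116). Of the 3 values below 0, those with the lowest p were of Mrpl33, at 77.5 and 96.3 against 38.6 and 63.1 CPM (-0.77 ± 0.25, adjusted p = 0.14), and Mrps18c, at 7.34 and 8.69 against 6.62 and 7.64 CPM with overlapping libraries (-0.17 ± 0.27, adjusted p = 0.753).

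The change with density was larger in H2R-deficient than in wild-type cells in 72 of 78 genes. By edgeR with TMM and the filter, the difference of the 2 changes passed in 0 of 78, as in 0 of all genes tested (0%). At an unadjusted p under 0.05 there were 32, all with the larger change in H2R-deficient cells, and DESeq2 called 5. Mrps5 was among the genes called by edgeR without the filter on low counts (adjusted p = 0.00138) and with total counts (0.0387). None of these counts and calls is set against its share over all genes. The median difference was 0.82 against 0.04 over all genes tested. The lowest adjusted p, 0.0906, was shared by 5 genes. Of the 6 values below 0, those with the lowest p were of Mrpl33 (-0.55 ± 0.34, adjusted p = 0.392) and Mrpl43 (-0.36 ± 0.31, adjusted p = 0.530). Those with the lowest adjusted p were Mrps6 (difference of log2 fold changes 3.10 ± 0.69), Mrps5 (2.35 ± 0.44), Mrps27 (2.22 ± 0.51), Mrpl23 (1.87 ± 0.41), a large-subunit protein at the exit tunnel, and Mrps24 (1.86 ± 0.37). DESeq2 called 4 of these 5, all but Mrps27, and also Mrpl3 of the large subunit. Mrps24 was at 4.01 and 4.25 CPM at high and 4.21 and 3.56 CPM at low density in wild type, and at 1.87 and 1.53 against 5.87 and 5.76 CPM in H2R-deficient cells. Its libraries overlapped between densities in wild type and were apart in H2R-deficient cells.

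Promoter windows of RefSeq (GRCm38.p6), from 250 bases before to 50 bases after the annotated start, were at hand for 69 of the 78 genes. The windows below belong to 2 genes with large rises in H2R-deficient cells (Mrps27 and Mrps5), to Mrps11, called in both genotypes, to Mrpl52, which was not called, and to Mrpl33, which fell. They were chosen after the values were seen. They are Mrps27 (chr13:99344536-99344810), Mrps5 (chr2:127587176-127587450), Mrps11 (chr7:78782881-78783155), Mrpl52 (chr14:54426659-54426933) and Mrpl33 (chr5:31613701-31613975). All 5 are on the plus strand, 275 bases long, and end 25 bases after the start. Capitals mark exact matches, on either strand, to an ETS-family motif (CCGGAAG) or a YY1 motif (AAGATGGC). The palindromic NRF1 motif was searched too.
Mrps27: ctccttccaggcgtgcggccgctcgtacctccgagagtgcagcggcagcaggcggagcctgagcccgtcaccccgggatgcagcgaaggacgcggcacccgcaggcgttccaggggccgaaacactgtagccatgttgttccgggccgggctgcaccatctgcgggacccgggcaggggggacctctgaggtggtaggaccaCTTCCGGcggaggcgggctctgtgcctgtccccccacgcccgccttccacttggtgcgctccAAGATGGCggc
Mrps5: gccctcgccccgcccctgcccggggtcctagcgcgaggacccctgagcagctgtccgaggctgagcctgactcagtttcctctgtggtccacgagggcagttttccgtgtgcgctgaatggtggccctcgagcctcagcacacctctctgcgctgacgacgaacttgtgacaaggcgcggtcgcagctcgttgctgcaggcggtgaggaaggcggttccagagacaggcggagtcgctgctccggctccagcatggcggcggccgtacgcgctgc
Mrps11: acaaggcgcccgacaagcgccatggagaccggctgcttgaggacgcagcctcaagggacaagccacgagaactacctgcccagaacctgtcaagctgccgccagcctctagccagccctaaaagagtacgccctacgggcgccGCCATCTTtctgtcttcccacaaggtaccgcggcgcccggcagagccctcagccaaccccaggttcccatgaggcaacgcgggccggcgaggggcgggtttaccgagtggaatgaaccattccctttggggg
Mrpl52: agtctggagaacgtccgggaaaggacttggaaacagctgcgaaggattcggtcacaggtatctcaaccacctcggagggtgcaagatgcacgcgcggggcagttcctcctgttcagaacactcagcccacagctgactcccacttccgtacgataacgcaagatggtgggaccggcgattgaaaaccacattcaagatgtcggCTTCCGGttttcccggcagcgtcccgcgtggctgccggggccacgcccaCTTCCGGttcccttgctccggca
Mrpl33: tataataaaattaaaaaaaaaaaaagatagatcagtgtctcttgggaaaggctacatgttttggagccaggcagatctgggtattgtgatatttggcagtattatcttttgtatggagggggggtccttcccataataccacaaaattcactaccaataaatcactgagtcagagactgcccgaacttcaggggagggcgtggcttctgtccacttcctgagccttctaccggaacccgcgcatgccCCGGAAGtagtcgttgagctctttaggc
Mrps27, which rose, and Mrpl52, which did not pass, both hold the ETS letters on the minus strand, Mrpl52 with 2 matches. Mrpl33, the gene that fell, holds them across its start, and Mrps5, with the second-largest rise, holds none of the 3 motifs. Mrps27 and Mrps11 hold the YY1 letters, Mrps11 on the minus strand.

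ETS-family factors such as GABP, NRF1 and YY1 are textbook regulators of nuclear genes for mitochondrial proteins. In the full windows of 300 bases, the ETS letters were in 25 of 69 promoters (36.2%), against 18.2% of 9932 promoters of protein-coding genes tested, 12.3% of promoters of all protein-coding genes and 9.12% of all promoters in the table. The YY1 letters were in 12 of 69 (17.4%), against 4.64%, 3.29% and 2.88%, and the NRF1 letters in 3 of 69 (4.35%), against 2.06%, 1.37% and 0.977%. The first letters of the YY1 motif equal the last of the ETS motif, so matches to the 2 can overlap. Other elements searched on both strands were the CCAAT box (CCAAT; 39.1% against 38.8% of promoters of protein-coding genes tested), the E-box (CACGTG; 7.25% against 10.1%), the GC box (GGGCGG; 49.3% against 63.2%) and the TATA box (TATAAA; 5.80% against 7.21%). Within the set the ETS letters were in a smaller share of the genes that rose in H2R-deficient cells, a difference that was not tested: 15 of 49 promoters of genes called higher held them (30.6%) and 10 of the other 20 (50%). The YY1 letters were in 10 of 49 (20.4%) and 2 of 20 (10%). A match is a description of the letters only.

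**Figure D5:**
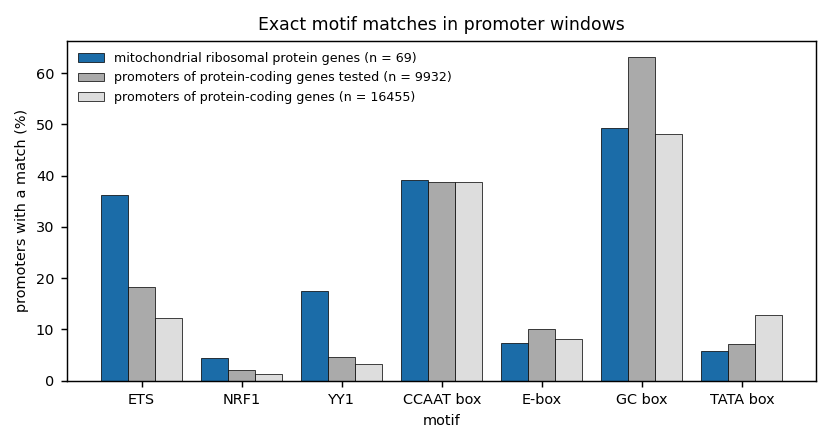
Share of promoter windows with at least 1 exact match to each motif on either strand, for the 69 genes with a window, the promoters of protein-coding genes tested (9932) and the promoters of all protein-coding genes (16455). The bars for the ETS and YY1 motifs are higher in the set (36.2% and 17.4%) than in the tested genes (18.2% and 4.64%).

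Many of these genes have a neighbour that starts close by on the other strand. A protein-coding gene on the opposite strand started within 1000 bases of 30 of the 78 (38.5%), against 10.6% of all protein-coding genes. That background includes genes that did not pass the filter on low counts, whereas all 78 passed it. Of 27 distinct pairs with both genes tested, 1 joins 2 genes of the set, Mrps11 and Mrpl46. In the other 26 both genes were called higher in 10 in H2R-deficient cells, the mitochondrial ribosomal gene only in 7, and the neighbour only in 2. In 1 pair the member rose and the neighbour fell, and in the other 6 the member was not called and the neighbour was not called (4) or fell (2). In H2R-deficient cells the median log2 fold change of these 26 neighbours was 1.08 and of their partners 1.75. Over all genes tested 30.0% were called higher there and 23.9% lower. In wild type both genes were called higher in 1 of the 26 pairs, the member only in 2 and the neighbour only in 4. The neighbour alone fell in 2, and in 17 neither was called, where 8.51% of all genes were higher and 4.15% lower. Mrps27 and Ptcd2, itself a gene for a mitochondrial RNA-binding protein, start 108 bases apart, and Ptcd2 rose in H2R-deficient cells by 2.80 on the log2 scale (adjusted p = 0.000382) and in wild type by 1.76 (adjusted p = 0.0171). Mrps11 and Mrpl46 of the large subunit start 412 bases apart, and both rose in H2R-deficient cells (2.07 and 2.35). Exons of 31 genes overlap an exon of another gene, for 26 of them on the opposite strand. Of these 31, 24 rose (77.4%) and 1 fell in H2R-deficient cells, and of the 47 without overlap 31 rose (66.0%).

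Other nuclear genes of mitochondrial gene expression were counted in the same fit, from lists of genes chosen with earlier results of these libraries known. Their counts stand against 30.0% of all genes called higher and 23.9% lower in H2R-deficient cells, and 8.51% and 4.15% in wild type. Ribosome subunits with other symbols were called higher in 3 of 5 cases in H2R-deficient cells and 1 of 5 in wild type. Ptcd3, a small-subunit pentatricopeptide repeat protein, rose in both genotypes (1.55 ± 0.25, adjusted p = 0.00120, and 0.93 ± 0.25, adjusted p = 0.0430). Dap3, a GTP-binding small-subunit protein, stood at 28.4 and 23.4 CPM at high and 21.0 and 24.6 CPM at low density in H2R-deficient cells, with overlapping libraries (-0.19 ± 0.19, adjusted p = 0.414). Gadd45gip1 and Chchd1, of the large and the small subunit, rose in H2R-deficient cells (2.05 and 1.44).

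Mitochondrial translation factors rose in 10 of 13 cases in H2R-deficient cells and 2 of 13 in wild type. The elongation factor Tufm, which brings aminoacyl-tRNA to the ribosome, went from 2.98 and 3.25 to 14.5 and 14.6 CPM in H2R-deficient cells (2.22 ± 0.23, adjusted p = 0.000228) and from 4.07 and 5.61 to 9.44 and 9.59 CPM in wild type (0.98 ± 0.22, adjusted p = 0.0266). The initiation factor Mtif2 rose by 2.20, the ribosome recycling factor Mrrf by 2.54 and Tsfm, the exchange factor of Tufm, by 2.90 on the log2 scale in H2R-deficient cells. Among genes that charge mitochondrial tRNAs, 17 of 19 rose in H2R-deficient cells, among them Vars2 (3.31), Rars2 (2.01), Yars2 (2.34) and Iars2 (1.51). In wild type 1 of 19 rose, which is 5.26% and under the background, namely Gatc of the glutamyl-tRNA amidotransferase (1.01). Of the genes for ribosome assembly and rRNA modification, 15 of 26 rose and 1 fell in H2R-deficient cells, led by Fastkd2 (3.20 ± 0.35, adjusted p = 0.000251), which binds the large ribosomal RNA. In wild type 3 of 26 rose, near the background share, among them Mtg1, a GTPase of large-subunit assembly (2.52), and Eral1, an rRNA chaperone of the small subunit (1.42).

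Of the genes for mitochondrial transcription, mRNA stability and DNA copying, 6 of 13 rose (46.2%) and 2 fell (15.4%) in H2R-deficient cells, and 4 of 13 rose (30.8%) in wild type. Lrpprc, which stabilises mitochondrial mRNAs, rose by 2.23 in H2R-deficient and 1.27 in wild-type cells, the packaging and transcription factor Tfam by 2.57 and 1.47, and the RNA polymerase Polrmt by 2.68 and 1.34 on the log2 scale in the same order. The falls among these genes and those of ribosome assembly were of Polg, Polg2 and Ddx28, and none of the 3 was called lower with library sizes as total counts. The transcripts encoded by mitochondrial DNA gave 0 calls among the 10 tested in either genotype (edgeR; also 0 at an unadjusted p under 0.05), with medians of 0.63 in H2R-deficient and -0.38 in wild-type cells. With library sizes as total counts, 9 of these 10 were called higher in H2R-deficient cells, and the median in wild type turned to 0.21. Their summed level was 3021 to 4353 CPM in wild-type high-density, 2537 to 3091 in wild-type low-density, 2128 to 3999 in H2R-deficient high-density and 3929 to 4356 in H2R-deficient low-density libraries, and the 2 H2R-deficient high-density libraries alone spanned most of that range. Among regulators, Myc rose in both genotypes (2.10 ± 0.25, adjusted p = 0.000318, in H2R-deficient cells; 1.64 ± 0.25, adjusted p = 0.00871, in wild type), as did Pprc1, a coactivator of the PGC family (2.11 and 1.23). Gabpb1, a subunit of the ETS-family factor GABP, fell in both genotypes (-1.24 ± 0.17, adjusted p = 0.000591, and -0.68 ± 0.17, adjusted p = 0.0355). In all 5 of 8 regulators fell in H2R-deficient cells and 1 of 8 in wild type, but 0 of 8 did so with library sizes as total counts.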

How the data were processed

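Neutrophil RNA was sequenced in 8 libraries, 2 per combination of genotype and density. The authors deposited unnormalized read counts per gene in featureCounts layout, per the file headers. STAR 2.5.2b, Subread 1.5.2 (featureCounts), Trimmomatic 0.36, bcl2fastq 2.17.1.14 and the build GRCm38 come from the submitters' processing notes. Those notes, as used here, say nothing of strand, of reads with several positions or of the annotation release, and reads of overlapping genes on opposite strands or of near-identical copies may be misplaced.

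Of the 49315 identifiers, 48970 were matched to a symbol and biotype in GENCODE M21 by identifier, and coordinates of 65 of the 78 genes equalled that annotation. Group and replicate number of each library were read from its labels. The filter on low counts was filterByExpr with the 4 groups, which kept 14909 genes. All 8 libraries entered a quasi-likelihood fit in edgeR 4.0.16 (R 4.3.3) with TMM scaling, a mean for each group and robust dispersions (4 residual degrees of freedom, biological coefficient of variation 0.236). Adjustment of p-values followed Benjamini and Hochberg over all 14909 genes, and an adjusted p under 0.05 was called. Replicate libraries were no copies of each other (chi-square per degree of freedom 36.0 to 50.7). TMM factors were 0.742 to 0.808 at high and 1.11 to 1.49 at low density. A count of 0 allows up to 3 counts; intervals cover counting error only.

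On simulated counts for the wild-type density comparison (14909 genes, 2 libraries per group), 13% of 100 genes changed 2-fold and 59% of 100 genes changed 4-fold were recovered, with 5 false calls of 77. Only those genes changed in the simulation, whereas 1888 were called in the real comparison. Its rates therefore need not hold for these data. Alternatives were DESeq2 size factors, library sizes as total counts, no filter on low counts, DESeq2 1.42.0, the replicate number as a block within genotype, and each library left out. The members, classes and lists were chosen with earlier results of these data known. Named genes were, per comparison, the 4 largest called rises and falls (with no call, the 2 lowest p in each direction), the 3 highest and 3 lowest levels per length, Mrpl12, Mrps18a, Mrps18b, Mrps18c, Mrps36, Mrpl58, and up to 4 genes of each list by p. The other wild-type calls, neighbours and promoters were named after their values were seen. Genes for the mitochondrial ribosomal RNAs were not analysed here.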

Additional observations from a re-analysis of the deposited data

How the results depend on the processing

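With library sizes as total counts, the median log2 fold change of all genes tested was 0.67 instead of 0.10 for wild-type density and 1 instead of 0.10 for H2R-deficient density. Calls over all genes were then 4822 higher and 124 lower instead of 1269 and 619 (wild type), and 7690 and 387 instead of 4478 and 3566 (H2R deficient). The members' median moved with it, to 1.21 and 2.56. Relative to all genes it was 0.55 with TMM and 0.54 with total counts for wild type. For the H2R-deficient group the values were 1.57 and 1.56. Scaling shifts all genes by nearly the same amount, so the values of each pair had to be close. Total counts gave 55 members higher in wild type, and 76 higher and 0 lower instead of 55 and 1 in H2R-deficient cells. The same setting gave a low-density genotype median of 0.78, and for the difference of the density effects 9 calls and a median of 1.15. Without the filter on low counts there were 19 members higher and 1 lower in wild type, an H2R-deficient median of 1.77, and 4 genotype calls at high density, 3 at low density and 10 for the difference. DESeq2 called 1 member lower in wild type (Mrpl33), 2 and 1 between genotypes at high and low density, and 5 for the difference. Calls over all genes are given here only for the density comparisons with total counts. The other counts of members cannot be read as particular to the members. The cause of these moves was not tested.

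Leaving out 1 library at a time gave, in wild type, 0 to 13 members higher, 0 to 1 lower and a median of 0.43 to 0.81. In H2R-deficient cells it gave 50 to 57 higher, 1 lower and a median of 1.55 to 1.71, and 51 to 56 of the 56 calls were kept. Between genotypes it gave 0 calls, with medians of -0.33 to -0.17 at high and 0.44 to 0.59 at low density, and for the difference 0 calls and 0.68 to 0.95. In a comparison left with a single library in an arm, that library is assumed to vary like the other groups. Counts of calls with a library left out are likewise not set against all genes. No called member changed sign under any of these alternatives. With the replicate block within genotype, all 66 density calls were kept. Added calls were Mrpl33 lower and Mrpl21, Mrpl49 and Mrps10 higher in wild type, and Mrpl45 higher in H2R-deficient cells. Same-numbered libraries of the 2 densities correlated in their deviations at 0.155 for wild type and 0.326 for the H2R-deficient group over all genes, from 2 numbers each, so the numbers were not taken as pairs. No paired analysis was possible for the genotype comparisons because the genotypes share 1 number. Genes at a few counts per library, such as Mrps6, are limited by depth.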
